A study of Mus musculus with 6 samples.

Results

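The 8 nephronophthisis genes Nphp4, Invs, Iqcb1, Glis2, Nek8, Rpgrip1l, Sdccag8 and Cep290 were taken from the table of counts by their symbols. They were 8 of 24422 genes in the table, and 8 of the 15171 genes with enough counts to be tested. Poly-A RNA of kidneys from C57BL/6 mice at postnatal day 60 was sequenced in 3 control libraries, labelled wild type, and 3 libraries labelled TfR1KO;KspCre, called knockout here. In the knockouts, Tfrc, the gene of the transferrin receptor TfR1 that brings iron into cells, carried floxed exons, and the Cre recombinase was expressed from the Ksp-cadherin promoter, so that deletion was directed to the distal nephron and not to the whole kidney. Mice of both groups ate an iron-sufficient diet with 220 ppm iron. The comparison asks how transcripts differed after TfR1 was deleted in these segments.

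Nephronophthisis is a recessive kidney disease with cysts at the border of cortex and medulla and with fibrosis between tubules, and it is caused by loss of proteins that mostly sit at the primary cilium. The primary cilium is a single sensory projection of each tubule cell. At its base, a gate named the transition zone controls which proteins enter, and further out a stretch named the inversin compartment holds a protein complex built on inversin. A few nephronophthisis genes encode proteins of the centrosome or the nucleus instead. The 8 genes were therefore described by place: Invs and Nek8 in the inversin compartment, Nphp4 and Rpgrip1l in the transition zone, Iqcb1 and Cep290 as a pair that bind each other at the transition zone and centrosome, Sdccag8 at the centrosome, and Glis2 in the nucleus.

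Total counts were 18036845 to 21001341 in controls and 11501053 to 19576330 in knockouts, with the lowest in knockout 3. Sex-linked transcripts set control 2 apart, with 52 counts of Xist and 3980 of 4 Y-linked genes, against 10458 to 23845 and at most 5 in the other libraries. Levels are given as CPM (counts per 1e+06 counts of a library, scaled by TMM), and a gene was called where its Benjamini-Hochberg adjusted p over all genes tested was below 0.05 in edgeR's quasi-likelihood test. Of the 15171 genes, 2612 (17.2%) were called, 1008 (6.64%) lower and 1604 (10.6%) higher in knockouts. With library size alone as the scaling, 3647 were called, 662 of them lower. The number of calls changed when 1 library was left out, and the cause of this was not tested. Without any 1 of the controls, 0 genes were called, while 4270 to 4823 genes had an unadjusted p under 0.05 in edgeR. Without knockouts 1, 2 and 3, the numbers called were 5332, 73 and 2. The Tfrc level was 122.8 ± 54.7 CPM in controls against 113.6 ± 90.1 CPM in knockouts (SD, n = 3 each), and the library labelled knockout 1 was the highest of all at 214.4 CPM. The Tfrc counts, which take in exons outside the floxed ones, thus gave no check of the genotype labels. Cdh16, which encodes Ksp-cadherin, was at 1421 ± 104.7 CPM in controls against 1191 ± 335.9 CPM in knockouts (SD, n = 3 each; log2 fold change -0.26, adjusted p 0.545).

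Of the 8 nephronophthisis genes, 1 was called lower in knockouts (Invs) and 0 were called higher with edgeR, where 6.64% and 10.6% of all genes tested were called (17.2% in either direction). An unadjusted p below 0.05 was found for 2, Invs and Glis2, both lower. Of the 8 log2 fold changes, 5 lay below 0 and 3 above 0. The groups did not overlap for 3 genes: Invs and Glis2 had all knockouts below all controls, as did 22.2% of all genes tested, and Sdccag8 had all knockouts above all controls, as did 23.8%. The median log2 fold change over the 8 genes was -0.15, with a range of -0.57 to 0.36, and the median over all genes tested was 0.02. With library size alone as the scaling, the 2 medians were 0.12 and 0.29, and 3 of the 8 values lay below 0 and 5 above, with Nphp4 and Rpgrip1l changing sign. The median over the 8 genes was -0.27 without knockout 1, -0.24 without control 1 and -0.09 without control 3. The kidneys were measured as bulk tissue, in which fewer cells of a type and less RNA per cell cannot be told apart.

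**Figure D1:**
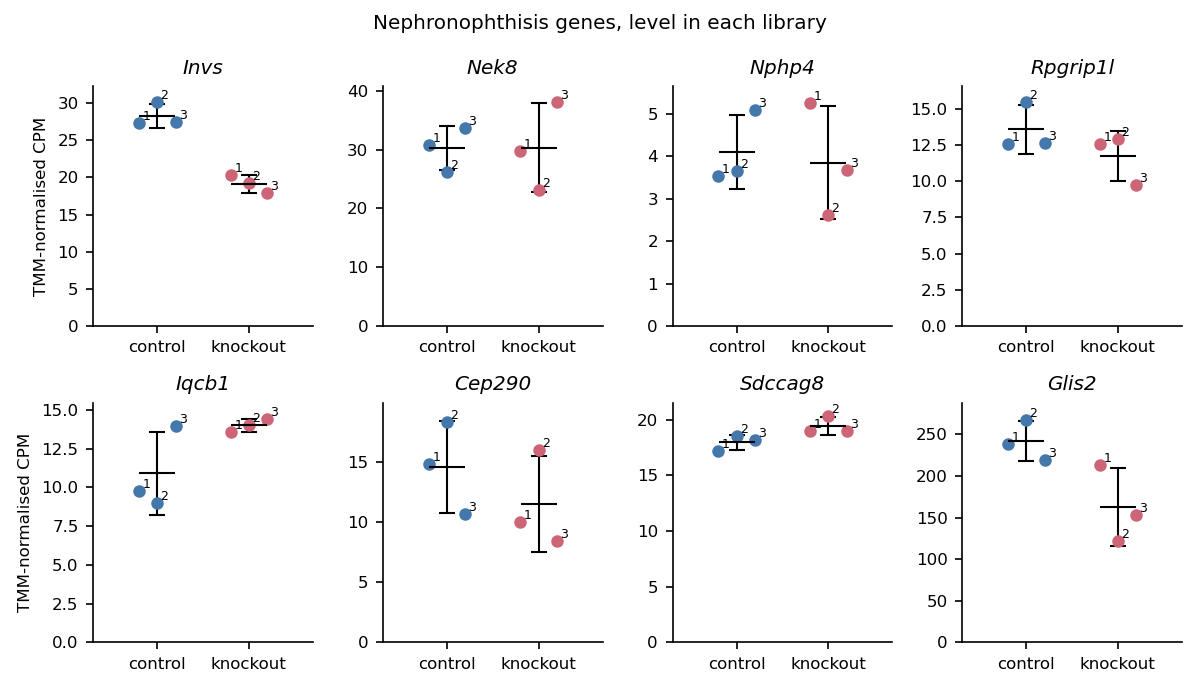
Level of each nephronophthisis gene in each library, in TMM-scaled CPM, with a panel per gene, points for the 3 control and 3 knockout libraries and bars for mean ± SD. The Invs points of the knockouts (17.9 to 20.3 CPM) lie below those of the controls (27.3 to 30.1 CPM), and in 5 of the 8 panels the groups overlap.

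Starting regions of 3 genes were read from the RefSeq promoter table (GRCm38.p6; 250 bases before to 50 after each gene's start), since they show the called gene beside members that were not called. The table matched 6 of the 8 genes, with 8 windows in all. Iron is a cofactor of the enzymes that mark hypoxia-inducible factors (HIF) for breakdown, and RFX factors control many ciliary genes, so the core letters of the HIF element (ACGTG) and an RFX half-site (GTTGCC) were looked for on both strands. Capitals mark a match to either set of letters or to its reverse complement. The regions were chr4:48279510-48279809 on the plus strand for Invs, chr11:78176617-78176916 on the minus strand for Nek8 and chr4:152477488-152477787 on the plus strand for window 2 of Nphp4.
Invs: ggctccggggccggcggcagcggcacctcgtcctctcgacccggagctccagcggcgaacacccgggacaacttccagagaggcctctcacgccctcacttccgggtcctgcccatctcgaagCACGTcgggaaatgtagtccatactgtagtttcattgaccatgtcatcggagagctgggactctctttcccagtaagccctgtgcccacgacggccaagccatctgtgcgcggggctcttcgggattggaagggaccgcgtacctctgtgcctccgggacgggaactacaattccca
Nek8: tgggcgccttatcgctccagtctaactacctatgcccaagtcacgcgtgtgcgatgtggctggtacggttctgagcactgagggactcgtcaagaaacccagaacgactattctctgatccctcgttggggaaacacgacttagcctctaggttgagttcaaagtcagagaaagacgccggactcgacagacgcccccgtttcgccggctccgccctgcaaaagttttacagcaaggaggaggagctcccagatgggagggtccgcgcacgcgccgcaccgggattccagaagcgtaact
Nphp4: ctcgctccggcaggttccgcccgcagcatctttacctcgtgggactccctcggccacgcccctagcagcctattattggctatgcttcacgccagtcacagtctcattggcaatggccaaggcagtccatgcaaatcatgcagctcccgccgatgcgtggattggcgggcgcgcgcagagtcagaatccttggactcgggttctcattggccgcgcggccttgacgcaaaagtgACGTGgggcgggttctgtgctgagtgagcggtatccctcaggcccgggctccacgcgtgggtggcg

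The Invs window held the HIF core on the reverse strand, with its first base 127 bases before the start, and window 2 of Nphp4 held it 16 bases before the start. Nek8 had no match to either set of letters. Over all 8 windows of the 6 genes, 2 held the HIF core, against 19.6% of the 32851 windows in the table. The RFX half-site was in 1 of the 8, window 3 of Nphp4, against 12.5% of all windows. The fork head letters TGTTTAC (3.65% of all windows) and the GLI letters GACCACCC (0.807%) were in 0 of the 8. These windows were rich in CpG pairs, with 18 to 28 in 7 of the 8 and 7 in window 1 of Nphp4, where the median window of the table had 7. A match of letters is a description of the sequence, and no binding was measured here.

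Invs encodes inversin, the scaffold of the inversin compartment and the protein absent in infantile nephronophthisis. It was at 27.3, 30.1 and 27.4 CPM in controls 1 to 3 against 20.3, 19.2 and 17.9 CPM in knockouts 1 to 3. Each knockout lay below each control. Replicates of a group lay within 1.14-fold of each other. The means were 28.3 ± 1.60 and 19.1 ± 1.24 CPM (SD, n = 3 each). Invs fell by 0.56 on the log2 scale (SE 0.14; 95% interval -0.89 to -0.24; adjusted p 0.0389; edgeR), with an unadjusted p of 0.00435. This is 0.676 of the control level. The call was lost without control 1, 2 or 3 (log2 fold changes -0.61, -0.53 and -0.59; adjusted p 0.0947, 0.134 and 0.101) and without knockout 2 or 3 (-0.57 and -0.52; adjusted p 0.0948 and 0.100), and it held without knockout 1 (-0.62; adjusted p 0.0245). It was also lost with library size alone as the scaling (-0.29; adjusted p 0.143), with the ratio of Xist to Y-linked counts as a covariate (-0.52; adjusted p 0.130) and with the replicate number as a block (-0.56; adjusted p 0.0817). Invs lies on chromosome 4, 48292632 to 48444826 (plus strand; mm9, as for all gene positions given here), with 20 merged exons in the annotation. Its exons share 226 bases (1.96% of 11547) with Tex10 and 116 bases (1.00%) with Gm12435, both on the opposite strand, and whether the counting used strand is not given in the sources used here. Tex10 itself had a log2 fold change of 0.31 (adjusted p 0.353).

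Nek8 encodes a kinase that inversin holds in the inversin compartment. Its levels were 30.8, 26.3 and 33.7 CPM in controls against 29.8, 23.1 and 38.2 CPM in knockouts, so the knockouts held both the lowest and the highest value. The means were 30.3 ± 3.74 and 30.3 ± 7.55 CPM (SD, n = 3 each). The log2 fold change was 0.00 (95% interval -0.50 to 0.50; adjusted p 0.996; edgeR). Nek8 lies on chromosome 11, 77979608 to 77990177 (minus strand), with 9 merged exons. Anks6, a gene outside the 8 whose product activates Nek8 and which was named here after its values were seen, was at 22.9 ± 1.26 and 20.8 ± 5.80 CPM (-0.14, SE 0.22, adjusted p 0.664).

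Nphp4 and Rpgrip1l encode proteins that bind each other in the transition zone, where they help to hold the gate together. Nphp4 was the least counted of the 8, with 48 to 107 counts per library, and its smallest count alone carries a counting error of 14.4%. It was at 3.53, 3.64 and 5.10 CPM in controls against 5.25, 2.61 and 3.68 CPM in knockouts. The knockouts held the highest and the lowest value, and the log2 fold change was -0.09 (SE 0.35; 95% interval -0.92 to 0.74; adjusted p 0.872). The sign of this value turned with the library left out and with the scaling, as it was 0.09 without control 3, 0.13 without knockout 2 and 0.17 with library size alone. Nphp4 lies on chromosome 4, 151850815 to 151937292 (plus strand), with 37 merged exons.

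Rpgrip1l was at 12.6, 15.5 and 12.7 CPM in controls against 12.6, 12.9 and 9.73 CPM in knockouts. Knockouts 1 and 2 lay within the control range and knockout 3 below it. The means were 13.6 ± 1.67 and 11.7 ± 1.75 CPM (SD, n = 3 each; log2 fold change -0.21, SE 0.20, adjusted p 0.483), and the value was -0.11 without control 2, -0.09 without knockout 3 and 0.06 with library size alone. The gene lies on chromosome 8, 93740929 to 93837161 (minus strand), with 26 merged exons.

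Iqcb1 and Cep290 encode proteins that bind each other and whose loss also affects the light-sensing cells of the retina. Iqcb1 was at 9.75, 8.99 and 14.0 CPM in controls against 13.5, 14.1 and 14.4 CPM in knockouts. Controls 1 and 2 lay below all knockouts, and control 3 lay among them. The means were 10.9 ± 2.69 and 14.0 ± 0.431 CPM (SD, n = 3 each; log2 fold change 0.36, SE 0.22, 95% interval -0.17 to 0.89, adjusted p 0.274). The Iqcb1 value was 0.57 without control 3, 0.23 without control 2 and 0.63 with library size alone. Cep290 was at 14.9, 18.3 and 10.7 CPM in controls against 10.1, 16.0 and 8.43 CPM in knockouts. Its groups overlapped, with knockout 2 above 2 of the controls, and the means were 14.6 ± 3.83 and 11.5 ± 3.99 CPM (-0.35, SE 0.32, 95% interval -1.09 to 0.40, adjusted p 0.451). The Cep290 value was -0.66 without knockout 2, -0.54 without control 3, -0.16 without control 2, -0.17 without knockout 3 and -0.06 with library size alone. The partners thus had values of opposite sign, with overlapping groups and no call for either. Iqcb1 lies on chromosome 16, 36828471 to 36872807 (plus strand, 15 merged exons), and Cep290 on chromosome 10, 99950923 to 100036289 (plus strand, 53 merged exons). Of the Cep290 exon bases, 776 (9.69%) are shared with 4930430F08Rik on the opposite strand, whose own log2 fold change was -0.26 (adjusted p 0.441).

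Sdccag8 encodes a centrosomal protein. It was at 17.2, 18.5 and 18.2 CPM in controls against 19.0, 20.4 and 19.0 CPM in knockouts, the tightest replicates of the 8 genes by range in controls. The groups did not overlap, but the gap between them was small: the means were 18.0 ± 0.676 and 19.5 ± 0.796 CPM (SD, n = 3 each; log2 fold change 0.11, SE 0.14, 95% interval -0.22 to 0.45, adjusted p 0.579). The value was 0.07 without control 1 and 0.39 with library size alone. Its smallest count, 248 in knockout 3, carries a counting error of 6.35%, above the spread of 4.09% between knockouts. The spread between controls was 3.76%. Sdccag8 lies on chromosome 1, 178744791 to 178950568 (plus strand, 22 merged exons).

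Glis2 encodes a zinc finger protein of the nucleus, related to the GLI factors of the Hedgehog pathway, which the primary cilium relays. It was at 238.9, 267.1 and 219.1 CPM in controls against 213.6, 122.2 and 152.6 CPM in knockouts. Knockout 1 lay just under the lowest control, and knockouts 2 and 3 lay well below. The means were 241.7 ± 24.1 and 162.8 ± 46.5 CPM (SD, n = 3 each; log2 fold change -0.57, SE 0.23, 95% interval -1.12 to -0.02), with a p of 0.0433 and an adjusted p of 0.118 in edgeR. The value was about the size of that of Invs, with a larger spread between knockouts (1.75-fold, against 1.14-fold). Without knockout 1 it was called (-0.82, adjusted p 0.0154), and it was not called in the other 15 alternatives, of which library size alone gave -0.31. Its smallest count carries a counting error of 2.24%. Glis2 lies on chromosome 16, 4594713 to 4624924 (plus strand, 8 merged exons), and shares 74 exon bases (1.69%) with Pam16 on the opposite strand (log2 fold change -0.41, adjusted p 0.215).

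**Figure D2:**
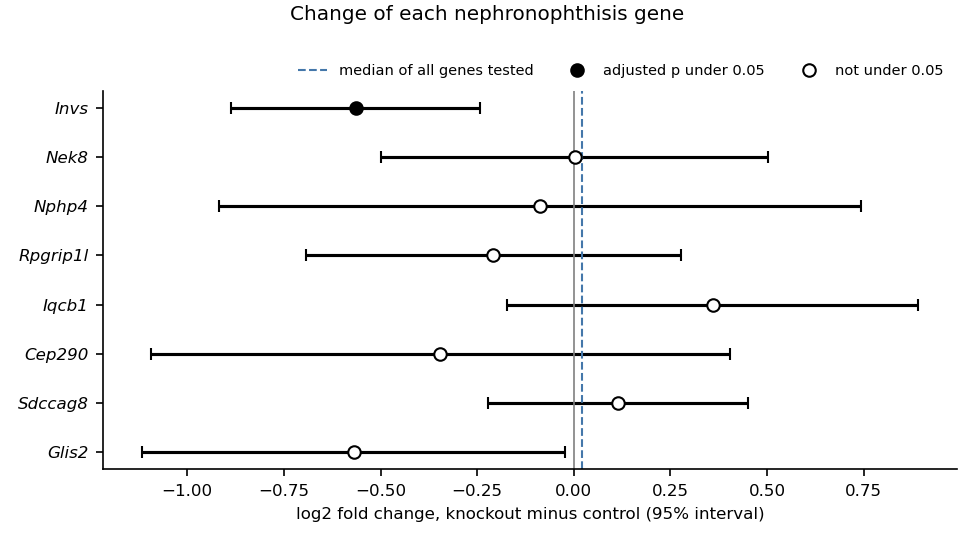
Log2 fold change (knockout over control) of the 8 nephronophthisis genes, as points with 95% intervals from edgeR's quasi-likelihood test. The intervals of Invs (-0.89 to -0.24) and Glis2 (-1.12 to -0.02) lie below 0 and those of the other 6 genes include 0.

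Levels between genes were compared per length, as TMM-scaled CPM per kilobase of merged exons (RPKM). In controls the order was Glis2 (55.3 ± 5.51 RPKM), Nek8 (5.80 ± 0.716), Sdccag8 (4.35 ± 0.164), Invs (2.45 ± 0.139), Iqcb1 (2.03 ± 0.500), Cep290 (1.83 ± 0.479), Rpgrip1l (1.38 ± 0.169) and Nphp4 (0.676 ± 0.145; SD, n = 3 each). Glis2 was thus 9.54 times the next gene and 81.8 times the last. These ratios depend on the length taken. Merged exons span 5222 bases in Nek8 and 4373 in Glis2, and the longest coding transcripts have 2809 and 3619 bases. The neighbours Invs and Iqcb1, Iqcb1 and Cep290, and Cep290 and Rpgrip1l overlapped between libraries, and the other neighbours did not. In knockouts the order was the same but for Invs and Iqcb1, which changed places, at 1.66 ± 0.107 and 2.60 ± 0.0800 RPKM, with their libraries apart. Glis2 was at 37.2 ± 10.6 RPKM and Nphp4 at 0.635 ± 0.219 RPKM there. Neighbours that overlapped in knockouts were Nek8 and Sdccag8, Invs and Cep290, and Cep290 and Rpgrip1l.

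**Figure D3:**
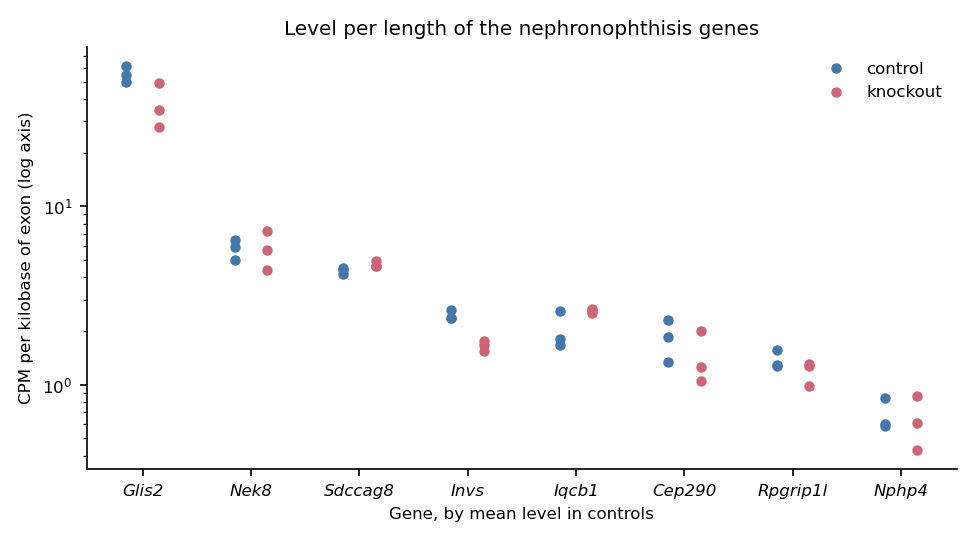
Level per length of the 8 genes in RPKM on a log axis, with a point for each of the 3 control and 3 knockout libraries. Glis2 stands above the rest (55.3 RPKM in controls), and Invs and Iqcb1 change places between the groups.

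The 50-base words of each gene's longest coding transcript were looked for in all coding transcripts of other genes, on both strands. For Invs 96.8%, for Cep290 90.8% and for the other 6 genes 100% of the words occurred in none of them.

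Summed over the 8 genes, the level was 355.0, 388.5 and 340.9 CPM in controls against 324.2, 230.5 and 263.8 CPM in knockouts. The knockouts lay below the controls in this sum with TMM scaling. As plain shares of total counts the groups overlapped, with 6605 of 19576330 in knockout 1 and 5678 of 18036845 in control 3. Glis2 made up most of the sum, with 64.3% to 68.7% in controls and 53.0% to 65.9% in knockouts. The other 7 genes summed to 116.1, 121.4 and 121.7 CPM in controls against 110.6, 108.2 and 111.2 CPM in knockouts. This order turned with the scaling: as plain shares of total counts, the knockouts lay above the controls for these 7 genes. Each of the 3 knockout libraries had 5 genes below the control mean and 3 above it. The genes were not the same in each: Nphp4, Nek8 and Cep290 had knockouts on both sides of the control mean, and the other 5 had all 3 on one side. The median shift of the 8 genes was -0.06 on the log2 scale in knockout 1, -0.22 in knockout 2 and -0.30 in knockout 3.

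Genes whose pattern over the 6 libraries was most like that of a member were found by the root mean square difference of centred log2 CPM. Since the same 6 libraries gave the fold changes, values close to that of the member follow from this choice. For Invs these were Pvrl3 (0.0408) and Rreb1 (0.0432), both called lower, with log2 fold changes of -0.54 each (adjusted p 0.0429 and 0.0355). For Glis2 they were Sox6 (0.0303; log2 fold change -0.57, adjusted p 0.0998) and Rhbdd2 (0.0427). The nearest to Nek8 were Stk11 and Tfpt, to Rpgrip1l Ormdl1 and Nln, to Iqcb1 Obfc1 and Rgl2, and to Sdccag8 Cct4 and Pa2g4, at 0.0251 to 0.0602. Nphp4 (Comtd1 and Stk36) and Cep290 (Usp34 and Tnpo1) had no gene nearer than 0.0988. No member was among the 2 nearest genes of another, and Invs and Rpgrip1l were 0.202 apart.

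**Figure D4:**
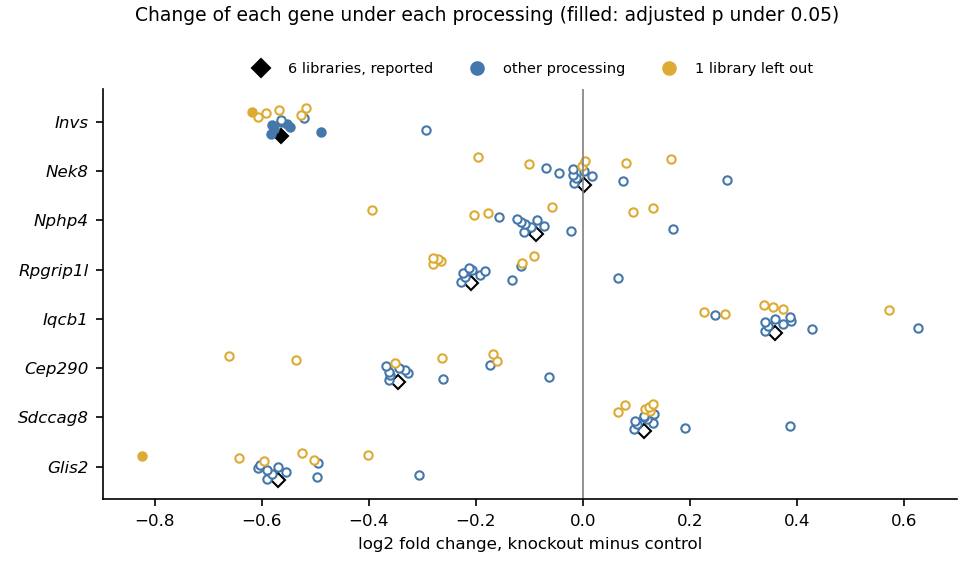
Log2 fold change (knockout over control) of each of the 8 genes as reported and under the 16 alternative settings, with called values marked. Invs lies between -0.62 and -0.29 and Glis2 between -0.82 and -0.31 in all of them, and the values of Nphp4, Nek8 and Rpgrip1l lie on both sides of 0.

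The wider set of nephronophthisis genes was described from a list of 15 other loci, all of them tested. Of these, 0 were called lower and 1 was called higher, where 6.64% and 10.6% of all genes tested were called, with 9 values below 0 and 6 above, and a median log2 fold change of -0.07. DESeq2's Wald test called 3, of which 2 were lower, where it called 4882 of all 15171 genes, 2281 of them lower. Without knockout 1 the edgeR test called 2, of which 1 was lower, where it called 5332 of all 15494 genes, 2544 of them lower. The gene called by edgeR over all 6 libraries was Dcdc2a, which encodes a doublecortin-domain protein that binds microtubules and lies along the cilium. Dcdc2a was at 20.9, 18.3 and 18.1 CPM in controls against 78.1, 80.5 and 64.8 CPM in knockouts. All knockouts lay far above all controls, at 74.5 ± 8.44 against 19.1 ± 1.58 CPM (SD, n = 3 each), and Dcdc2a rose by 1.96 on the log2 scale (SE 0.15, adjusted p 0.0271). Its value stayed between 1.90 and 2.23 under the 16 alternatives and was called in 11 of them.

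Of 20 further transition zone genes, 1 was called lower and 0 higher, where 6.64% and 10.6% of all genes tested were called, with 14 values below 0 and 6 above, and a median of -0.21. The gene called was Rpgrip1, which encodes a partner of the GTPase regulator Rpgr at the photoreceptor cilium and is a close relative of Rpgrip1l. It had 36, 63 and 69 counts in controls and 18, 11 and 4 in knockouts, so its value rests on few reads (3.21 ± 1.25 against 0.581 ± 0.290 CPM; SD, n = 3 each; log2 fold change -2.42, SE 0.52, adjusted p 0.0326). Of its exon bases, 889 (16.9%) are shared with Supt16h on the opposite strand. Ahi1, which encodes jouberin, was at 19.6 ± 0.869 CPM in controls against 14.0 ± 1.76 CPM in knockouts (-0.48, SE 0.17, adjusted p 0.0826). Tmem237, which encodes a membrane protein of the gate, was at 24.6 ± 6.69 and 16.9 ± 1.03 CPM (-0.54, SE 0.22, adjusted p 0.117), and its value was -0.31 without control 2. With library size alone the values of Ahi1 and Tmem237 were -0.22 and -0.25.

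Of 11 genes of the Hedgehog pathway and the Glis family, 2 were called lower and 0 higher, against the same shares of all genes. The median log2 fold change was 1.28, with 4 values below 0 and 7 above. That median is the value of Gli2, which had 4 to 50 counts per library (SE 0.78, adjusted p 0.264, edgeR). The calls changed with the setting, as 1 of 4 was lower with library size alone, 2 of 6 with DESeq2's Wald test and 3 of 7 without knockout 1. Of the calls over all genes in these settings, 662 of 3647, 2281 of 4882 and 2544 of 5332 were lower. Glis1, a relative of Glis2, was at 9.20, 14.1 and 14.6 CPM in controls against 5.59, 2.41 and 3.75 CPM in knockouts. The groups were apart, and Glis1 fell by 1.69 on the log2 scale (SE 0.37, adjusted p 0.0335). Sufu, which encodes the inhibitor that holds GLI factors in the cytoplasm, was at 79.0, 90.3 and 75.1 CPM in controls against 61.2, 42.6 and 40.1 CPM in knockouts. It fell by 0.76 on the log2 scale (SE 0.19, adjusted p 0.0422), with the groups apart, and was at -0.50 with library size alone (adjusted p 0.0632). Without any 1 of the controls, 0 genes were called at all, so the calls of Dcdc2a, Rpgrip1, Glis1 and Sufu were lost there. Without knockout 2 or 3 the call of Dcdc2a held (adjusted p 0.0442 and 0.0468), and those of Rpgrip1 (0.0930 and 0.0766), Glis1 (0.0803 and 0.0833) and Sufu (0.115 and 0.109) were lost.

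**Figure D5:**
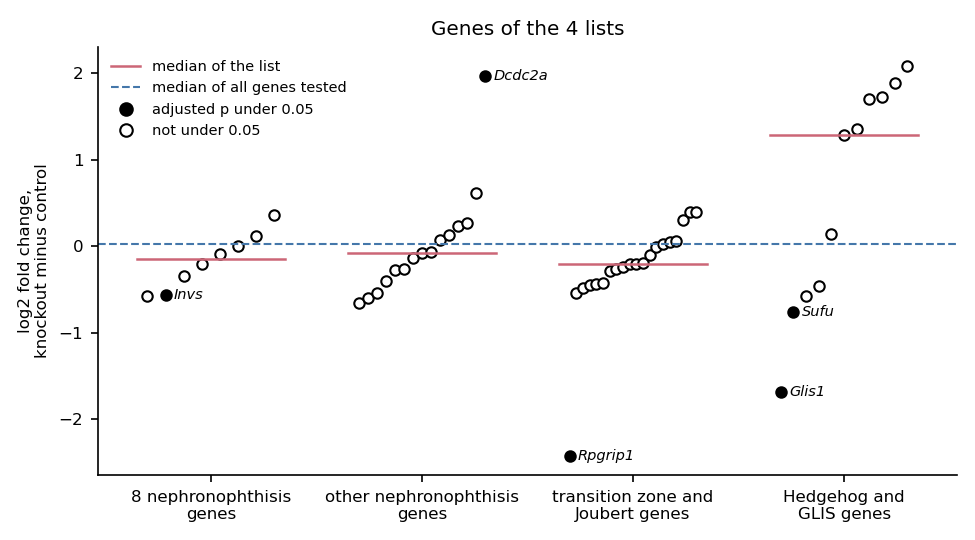
Log2 fold change (knockout over control) of every tested gene of the 8 nephronophthisis genes, the 15 other loci, the 20 transition zone genes and the 11 Hedgehog and Glis genes, with called genes marked and the median of each list drawn. Medians were -0.15, -0.07, -0.21 and 1.28, and Dcdc2a and Rpgrip1 are the called genes among the other loci and the transition zone genes.

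Markers of the cell types of the kidney were described beside these genes, and the calls fell in some of their lists and not in others. Of the 8 proximal tubule markers, 7 were called lower (median log2 fold change -2.14), with summed levels of 10447 to 13897 CPM in controls against 1827 to 5499 CPM in knockouts. The 6 thick ascending limb markers had a median of -1.15 and 0 calls (5305 to 11721 against 908 to 6923 CPM), the 4 distal convoluted tubule markers a median of -0.90 and 1 call lower (1940 to 3056 against 152 to 2281 CPM), and the 7 collecting duct markers a median of -0.15 and 0 calls (884 to 1260 against 580 to 1485 CPM). The 4 podocyte markers had 0 calls (447 to 557 against 466 to 778 CPM). Of the 7 fibroblast markers 4 were called higher (351 to 672 against 1046 to 4016 CPM), of the 7 immune markers 5 (122 to 139 against 190 to 541 CPM) and of the 5 cycling cell markers 4 (5.07 to 21.1 against 45.1 to 70.6 CPM). Of 8 markers of multiciliated cells, which carry many motile cilia, 4 had too few counts to be tested, and the others had 1 call in each direction (8.10 to 9.11 against 7.28 to 12.7 CPM in sum). No marker was at 0 in all libraries. The part of these cell type differences in the levels of Invs, Glis2 and the other nephronophthisis genes was not tested.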

How the data were processed

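Kidneys of 3 control and 3 TfR1KO;KspCre mice were sequenced from poly-A RNA with Illumina TruSeq kits. The deposited files hold unnormalised read counts for each gene, which the authors made, per the submitters' processing notes and the methods, with CASAVA 1.8.2, Trimmomatic, TopHat2 2.0.11 on mm9 and HTSeq. The annotation and strand setting of the counting are not given in the sources used here, so counts of overlapping genes are uncertain.

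Groups came from the sample titles. The genes described and the lists were chosen with earlier results of these data known. Counts were fitted with edgeR 4.0.16 (filterByExpr defaults, minimum count 10 and total 15; TMM; glmQLFit and glmQLFTest, package default; two-sided; all 6 libraries; no covariate) in R 4.3.3, with Benjamini-Hochberg adjustment over 15171 genes and a threshold of 0.05. The standard error was the log2 fold change divided by the square root of F. The fit was tested on simulated data. Named were the 8 genes, Tfrc, Cdh16, list genes that were called or otherwise the 3 of smallest p in a list, and the 2 genes nearest to each of the 8 (average log2 CPM of at least 3, prior count 2). Some genes that this rule named are not reported here.

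As alternatives, counts were scaled by upper quartile, by library size alone or by the size factors of DESeq2 1.42.0, and further ones were 2 other filters, DESeq2's Wald test, limma-voom (limma 3.58.1), the newer quasi-likelihood version, a replicate block, a covariate of Xist against Y-linked genes, and leaving out each library. Total counts ranged from 11501053 to 21001341. The counting error given for a count is that of the count alone, and the 95% intervals of log2 fold changes include the spread between replicates. Replicates differed by far more than sampling noise (chi-square of 52.9 to 125.5 per degree of freedom), so each library counted as 1 replicate. Gene positions were taken from GENCODE M1 (NCBIM37, mm9), which matched 20791 of the 24422 names. Promoter sequences are from RefSeq (GRCm38.p6).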

Additional observations from a re-analysis of the deposited data

How the results depend on the processing

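Of the 8 nephronophthisis genes, Invs and Glis2 kept a negative sign under all 16 alternatives and Iqcb1 and Sdccag8 a positive and Cep290 a negative one. Invs was called in 8 of the 16 (adjusted p 0.00157 to 0.143). With library size alone, 3647 of all genes were called (662 of them lower) and 0 of the 8 genes (Invs -0.29, adjusted p 0.143), their median was 0.12, the median of all genes rose by 0.27 and was 0.29, Nphp4 was at 0.17 and Rpgrip1l at 0.065, and 2 of the other loci (0 lower) and 4 Hedgehog genes (1 lower) were called. DESeq2's Wald test called 4882 genes (2281 lower), 3 other loci (2 lower), 2 transition zone genes (both lower) and 6 Hedgehog genes (2 lower). With the covariate of Xist against Y-linked genes, 0 genes were called in all, members and lists included, and 4235 had an unadjusted p under 0.05. At 10 counts in every library, 0 transition zone genes were called. Without 1 library, the calls ranged over 0 to 5332 for all genes, 0 to 2 for the 8 genes, 0 to 2 for the other loci, 0 to 3 for the transition zone and 0 to 7 for the Hedgehog list. The 2 of the 8 genes called without knockout 1 were Invs and Glis2. Nek8, at 0.00, turned sign with DESeq2 size factors (-0.0173), no filter (-0.0123), the Wald test (-0.0179), limma-voom (-0.0441), the covariate (-0.0684), and without control 1, control 2 or knockout 3 (Nek8 lay between -0.20 and 0.16 over the fits without 1 library). Nphp4 turned without control 3 or knockout 2, and lay between -0.39 and 0.13 over these fits. The cause of these changes was not tested. With the replicate number as a block, 0 genes were called (5432 with an unadjusted p under 0.05), members and lists included, Invs had an adjusted p of 0.0817 and Nek8 was at -0.0187. Same-numbered libraries did not deviate together (correlations of -0.13, 0.01 and 0.21), so the number was not taken as a pairing.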
